A study of Homo sapiens with 2 samples.

Results

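The genes described here are the estrogen receptor gene ESR1 with its chromosomal neighbours SYNE1 and CCDC170, the other estrogen receptors ESR2 and GPER1, and 5 classic estrogen-responsive genes, PGR, GREB1, TFF1, NRIP1 and CA12. They were taken by symbol, through their Ensembl identifiers in GENCODE release 44, and all 10 were found among the 58735 genes of both count tables. The question was whether the ESR1 reads of a cell line that carries a receptor fusion come together with reads of the receptor's usual targets.

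The RNA came from MCF10a-Snail-ER cells, a derivative of the human mammary epithelial line MCF10a with stable expression of the transcription factor Snail (gene SNAI1) joined to the estrogen receptor. Both libraries were made from polyadenylated RNA of cells exposed to 100 nM tamoxifen for 1 day, in medium with horse serum, EGF, hydrocortisone, cholera toxin and insulin. One library was read as native RNA strands on an Oxford Nanopore MinION (direct RNA), and the other was an Illumina TruSeq stranded mRNA library. No untreated library and no parental MCF10a library was analysed, and each platform had 1 library. Whether the line is 1 clone, and which part of the receptor the fusion holds, are not given in the sources used here. The levels below therefore describe treated fusion cells, and no value shows induction or repression by tamoxifen.

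Estrogen receptor alpha, the product of ESR1, is a transcription factor that is activated when estradiol fills its hormone-binding domain. In tamoxifen-inducible fusions that domain is joined to another protein, and HSP90 chaperones hold the fusion inactive until a ligand binds. The whole receptor binds DNA at estrogen response elements, palindromes of the half-site ggtca, and raises genes such as PGR, GREB1 and TFF1 in luminal breast cells. MCF10a cells are regarded as negative for the receptor and resemble basal mammary cells.

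The palindrome was searched in the 1000 bases before the canonical transcript start of every protein-coding gene, in hg38, and the closest match of each of the 5 targets is printed to show how near each comes to the letters the receptor is known to bind. A match is a likeness of letters and was not tested as a binding site. The motif was GGTCANNNTGACC. It is its own reverse complement, so 1 search covers both strands, and mismatches were counted over its 10 fixed letters. Capitals mark the 13 bases set against the motif, each line is 5′ to 3′ on the gene's strand, and the coordinates span the printed bases.
NRIP1, chr21:15065633-15065661, minus strand: gggcgtggGGTCAAAGTGACCcagagttc
TFF1, chr21:42366920-42366948, minus strand: ccctgcaaGGTCACGGTGGCCaccccgtg
CA12, chr15:63382170-63382198, minus strand: taagcagcGGGCAAGGTGAACtcgttggg
GREB1, chr2:11533451-11533479, plus strand: ctgtccaaGGTCACACAGCTCcggtgggt
PGR, chr11:101130218-101130246, minus strand: gaggagcaGGACATGTTGGTCgcagcagg

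The NRIP1 match was complete and began 653 bases before the start, in an intron of another NRIP1 transcript. Only 17 of 19831 windows (0.0857%) held a complete match. The TFF1 match began 405 bases before the start, upstream of the gene body, with 1 mismatch, a closeness reached by 2.29% of windows. CA12 had 2 mismatches, reached by 30.4% of windows, with the match upstream of the gene body. GREB1, in an intron of another of its transcripts, and PGR, upstream of its gene body, had 3 mismatches, reached by 95.4% of windows, so these letters do not set GREB1 or PGR apart from other genes. GREB1 had 2 places and PGR 3 places as close, and those nearest to the start are printed. NRIP1 and CA12 had reads in both libraries, while TFF1, with the second closest match, had almost none.

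Depth was 403235 counts for Nanopore and 191741714 for Illumina, so 1 count stood for 2.48 counts per 1000000 (CPM) in the former and 0.00522 CPM in the latter. A gene with 0 counts could still be present at up to 3 counts, which is 7.44 CPM at the Nanopore depth and 0.0156 CPM at the Illumina depth. Intervals are 95% Wilson intervals and, like the exact tests, cover counting error in these libraries only. All 9 basal mammary markers, KRT5, KRT14 and KRT17 among them, were at 5 CPM or more by Illumina. That level was reached by 52.3% of all protein-coding genes. Of 12 luminal markers 6 were at 5 CPM or more, among them KRT8 and KRT18. SPDEF and TFF3 were listed at 0 in both libraries, and AGR2 had 1 Illumina count. Of 11 fibroblast, leukocyte and endothelial markers, DCN, CD68 and PECAM1 reached 5 CPM by Illumina. The summed Illumina level was 33.0 CPM for the 5 fibroblast, 45.1 CPM for the 3 leukocyte and 5.16 CPM for the 3 endothelial markers. Their part in the results was not tested.

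ESR1 (ENSG00000091831, chromosome 6, 151656691 to 152129619, plus strand, hg38) had 389 Nanopore counts, 965 CPM (874 to 1065), and 27469 Illumina counts, 143 CPM (142 to 145). It was the most deeply read of the 10 genes in each library. On the log2(CPM + 1) scale ESR1 was 2.74 higher by Nanopore (exact conditional binomial test, Benjamini-Hochberg p = 1.82e-177 over 12414 genes), and this difference is called the log2 ratio below. At its Illumina share, 57.8 Nanopore counts would correspond to the depth of that library. Each ESR1 Nanopore count was matched by 70.6 Illumina counts, against 607 for CA12, 677 for NRIP1 and 577 for SNAI1. The depth of the libraries differed 476-fold.

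Divided by the 13726 bases of all annotated ESR1 exons, the Illumina level was 10.4 RPKM (CPM per kilobase, interval 10.3 to 10.6), at the 81.8 percentile of 19831 protein-coding genes. The 14 annotated ESR1 transcripts averaged 2487 bases, and on that length the level was 57.6 RPKM. Reads of the fusion and of the native gene are not separated in the tables, and neither length is that of the fusion. These values therefore do not bound the per-length level of ESR1, and a length under 2487 bases would give more than 57.6 RPKM. The log2 ratio was 5.05 and 3.79 when the Illumina counts of all genes were divided by the same lengths.

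Few genes of similar annotated exonic length had so high a Nanopore share, while the share was less rare among genes with many Nanopore counts. Among 949 other tested protein-coding genes with exonic length within 20% of that of ESR1, the median log2 ratio was −0.90 (quartiles −1.52 and −0.30), and 14 genes (1.48%) were at or above the ratio of ESR1. Among 2856 tested protein-coding genes that, unlike ESR1, overlap no other gene, 23 (0.805%) were. Of all 12413 other tested genes, 9.82% were. Among 446 other tested protein-coding genes with 100 or more Nanopore counts, the median was 0.20, and 43 (9.64%) were at or above ESR1. The plot of the ratio against exonic length shows ESR1 above the cloud of genes of its length.

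**Figure D1:**
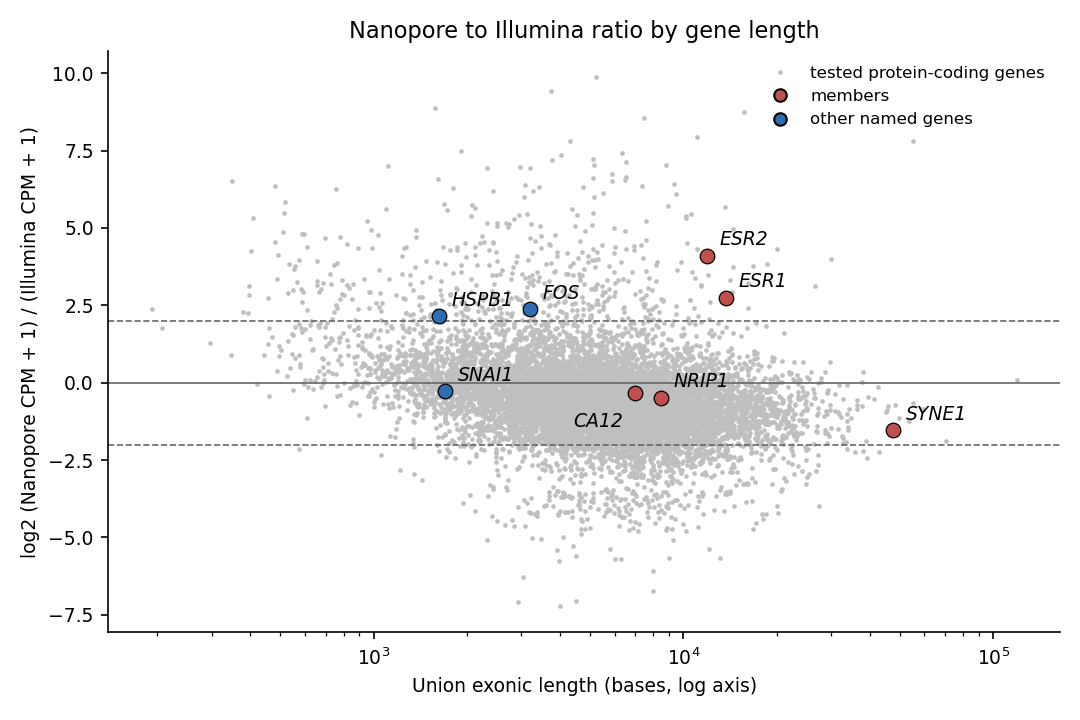
Log2 ratio of Nanopore to Illumina CPM (each plus 1) against union exonic length on a log axis, 1 point per tested protein-coding gene, with dashed lines at 4-fold. ESR1 at 2.74 and ESR2 at 4.10 lie above the upper line, while CA12, NRIP1 and SYNE1 lie between the lines.

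The 3 protein-coding genes nearest to ESR1 in both libraries, by Euclidean distance of log2(CPM + 1) over 2 libraries, were ENSG00000273734, FOS and HSPB1. ENSG00000273734 (chromosome 19) had 305 Nanopore and 30221 Illumina counts, a distance of 0.376, and overlaps OAZ1 with 268 and 124270. FOS, a subunit of the AP-1 transcription factor, had 268 and 24388 counts, a distance of 0.563. HSPB1, a small heat shock protein gene, had 242 and 25802 counts, a distance of 0.690. FOS and HSPB1 overlap no other gene, and their exonic lengths of 3186 and 1623 bases are shorter than that of ESR1.

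SNAI1, the gene of the fusion partner, had 286 Nanopore counts, 709 CPM (632 to 796), and 164973 Illumina counts, 860 CPM (856 to 865). Its Illumina level per length was 504.6 RPKM, at the 99.6 percentile of protein-coding genes. The log2 ratio of −0.28 (exact binomial test, Benjamini-Hochberg p = 0.0027) became −0.94 after division of the Illumina counts by union exonic length and 0.23 after division by mean transcript length. SNAI1 has 1 annotated transcript, so its length was 1705 bases in both settings. The 2 values differ only through the lengths of other genes. In counts, ESR1 over SNAI1 was 1.36 by Nanopore (exact interval 1.16 to 1.59) and 0.167 by Illumina (0.164 to 0.169), and these intervals do not overlap. Per length by Illumina the ratio was 0.0207 on union exonic length and 0.114 on mean transcript length. Dividing the Nanopore counts by union exonic length as well gave 0.169 (0.145 to 0.198). The length settings used elsewhere divide Illumina counts only, and this length is not that of the fusion. The value of 0.169 therefore gives no order of ESR1 and SNAI1 by Nanopore.

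Neither neighbour shared the ESR1 level. CCDC170, a coiled-coil gene that lies before ESR1 on the same strand, had 0 Nanopore and 6 Illumina counts, 0.0313 CPM (0.0143 to 0.0683). SYNE1, which encodes the nuclear envelope protein nesprin-1, had 2 Nanopore counts, 4.96 CPM (1.36 to 18.1), and 3123 Illumina counts, 16.3 CPM (15.7 to 16.9). SYNE1 had a log2 ratio of −1.54 (exact binomial test, Benjamini-Hochberg p = 0.145). Per length SYNE1 was at 0.343 RPKM and CCDC170 at 0.00576 RPKM, against 10.4 for ESR1, and none of the 3 intervals overlap.

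SYNE1 lies on the opposite strand, and its body shares 7933 bases with the ESR1 body but no annotated exonic base. Within SYNE1 the antisense gene SYNE1-AS1 had 23 Illumina counts and ENSG00000226193 had 26, both with no Nanopore count. The lncRNA genes ENSG00000233823 and ENSG00000284615, which also lie in the ESR1 body, were listed at 0 in both libraries. The ESR1 counts were thus accompanied by counts of no overlapping gene other than the 2 Nanopore and 3123 Illumina counts of SYNE1.

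In all, 13 other protein-coding genes have a body within 1 Mb of ESR1, of which 9 had Nanopore and 11 had Illumina counts. The highest Nanopore count among them was 14, for ARMT1, against 389 for ESR1. Per length by Illumina, ARMT1 at 15.8 RPKM and MTHFD1L, an enzyme of mitochondrial folate metabolism, at 15.0 RPKM were above ESR1, and ZBTB2 and FBXO5, both at 7.66 RPKM, were below it. PLEKHG1, AKAP12, RMND1, MTRF1L and RGS17 lay between 0.112 and 3.28 RPKM. MYCT1 and VIP were listed at 0 in both libraries.

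Of these 13 neighbours 8 were tested, and their log2 ratios ran from −1.83 (MTHFD1L) to 0.28 (MTRF1L). None was called 4-fold different, and MTHFD1L alone passed 0.05 (exact binomial test, Benjamini-Hochberg p = 2.81e-05). By Illumina CPM too ESR1 was the highest gene of the region, at 143 against 73.1 for MTHFD1L, and the place of ESR1 under ARMT1 and MTHFD1L holds for RPKM on union exonic length. The map of the region shows Nanopore CPM beside that RPKM.

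**Figure D2:**
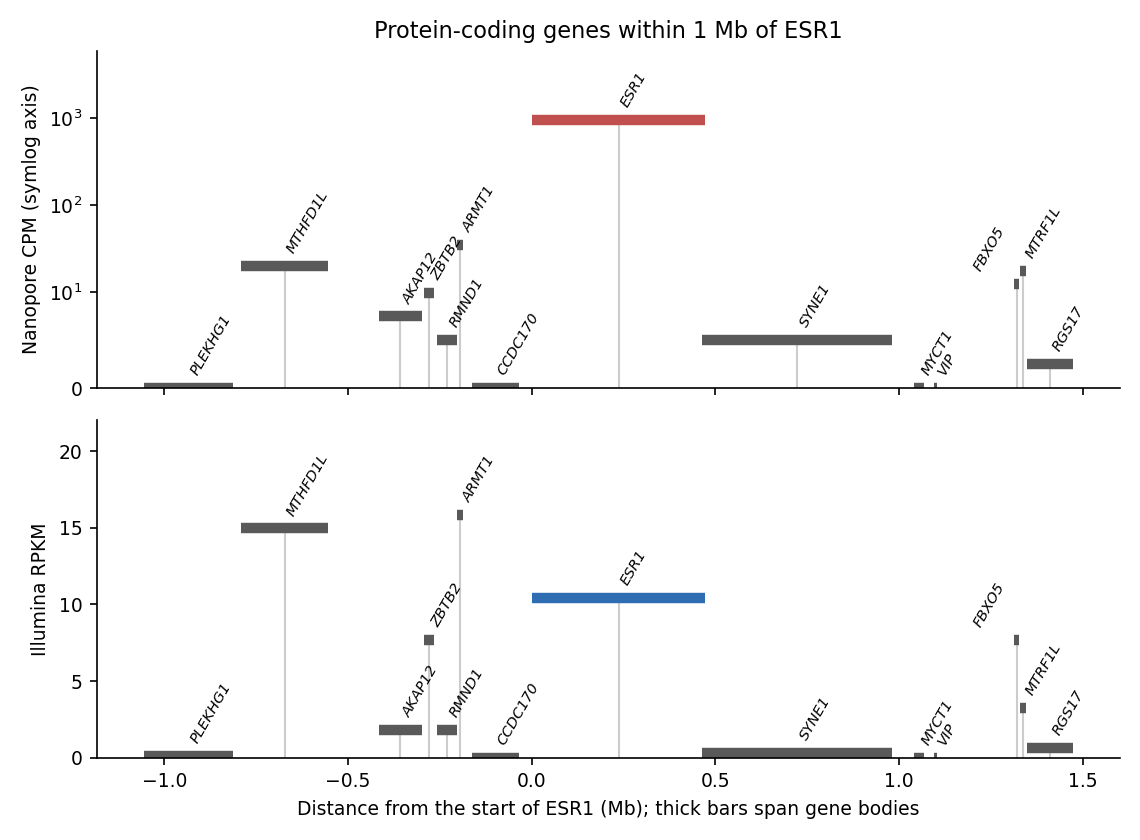
Protein-coding genes within 1 Mb of ESR1, with Nanopore CPM (top, axis linear up to 10 and logarithmic above) and Illumina RPKM (bottom) at each gene's distance from the ESR1 start. Thick bars span gene bodies and thin lines only join them to the axis. ESR1 stands at 965 CPM by Nanopore, where ARMT1 is next at 34.7, and at 10.4 RPKM by Illumina, below ARMT1 at 15.8 and MTHFD1L at 15.0.

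ESR2 (ENSG00000140009, chromosome 14, 64084232 to 64338112, minus strand), the gene of estrogen receptor beta, had 10 Nanopore counts, 24.8 CPM (13.5 to 45.7), and 96 Illumina counts, 0.501 CPM (0.410 to 0.611). ESR2 had a log2 ratio of 4.10 (exact binomial test, Benjamini-Hochberg p = 8.05e-13), where 0.202 Nanopore counts would correspond to its Illumina share. A test needed a mean of 5 CPM over the 2 libraries. ESR2 reached that mean through its Nanopore level alone, so the filter favoured a call in that direction. SYNE2, which runs on the other strand and shares 142202 bases of gene body with ESR2, had the same 10 Nanopore counts, beside 10384 Illumina counts. The exons of the pair share no base in the annotation. ENSG00000214770, a lncRNA gene with 523 exonic bases in common with ESR2, had 0 and 46 counts. Whether the same Nanopore reads were counted for both genes was not tested.

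GPER1 (chromosome 7, 1082208 to 1093815, plus strand), a membrane receptor that responds to estrogens and also to tamoxifen, had 1 Nanopore count and 851 Illumina counts, 4.44 CPM (4.15 to 4.75). It lies inside C7orf50, on the other strand, which had 25 and 6565 counts. The mean of its 2 CPM values was under 5, so it was not tested.

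Reads of the 5 targets were divided. NRIP1 and CA12 were read in both libraries, GREB1 and TFF1 by Illumina only, and PGR by neither. CA12 (chromosome 15, 63321378 to 63381846), which encodes a membrane carbonic anhydrase, had 23 Nanopore counts, 57.0 CPM (38.0 to 85.6), and 13951 Illumina counts, 72.8 CPM (71.6 to 74.0). NRIP1 (chromosome 21, 14961235 to 15065936), a corepressor of ligand-bound nuclear receptors, had 8 Nanopore counts, 19.8 CPM (10.1 to 39.2), and 5415 Illumina counts, 28.2 CPM (27.5 to 29.0). The libraries gave overlapping ranges for each of these genes. CA12 had a log2 ratio of −0.35 and NRIP1 of −0.49 (exact binomial test, Benjamini-Hochberg p = 0.395 and p = 0.525), and both turned positive, 1.00 and 1.06, when Illumina counts were divided by exonic length. The median over all tested genes moved from −0.42 to 0.41 with the same division.

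The NRIP1 body overlaps lncRNA genes. ENSG00000235609, on the same strand with 87 exonic bases in common, had 8 Nanopore counts, as many as NRIP1, and 245 Illumina counts, a log2 ratio of 3.19 that was called 4-fold different (exact binomial test, Benjamini-Hochberg p = 1e-06). ENSG00000229047, on the other strand with 562 exonic bases in common, had 7 and 763 counts. Its log2 ratio was 1.88 (exact binomial test, Benjamini-Hochberg p = 0.00768), under 4-fold. ENSG00000231201 had 0 and 2 counts. ENSG00000235609 and ENSG00000229047 each reached the 5 CPM mean needed for a test through the Nanopore level alone. The Nanopore count of NRIP1 may hold reads of these genes or share reads with them, which was not tested, while CA12 overlaps no annotated gene.

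GREB1 (chromosome 2, 11482341 to 11642788), a chromatin-bound cofactor of the receptor, had 0 Nanopore counts and 311 Illumina counts, 1.62 CPM (1.45 to 1.81). At that share 0.654 Nanopore counts would correspond to the Nanopore depth, so a count of 0 does not set the libraries apart. Illumina counts thinned once at random to the Nanopore total held 2 counts of GREB1. TFF1 (chromosome 21, 42362282 to 42366535), a secreted trefoil peptide, had 0 and 2 counts, 0.0104 CPM by Illumina (0.00286 to 0.0380). PGR (chromosome 11, 101029624 to 101129813), the progesterone receptor gene, was listed at 0 in both libraries, as was its antisense neighbour PGR-AS1. TFF1 and PGR were thus under the level of 3 counts in the deeper library.

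Per length by Illumina, the order of the 10 genes was ESR1, CA12, NRIP1, GPER1, SYNE1, GREB1, ESR2, TFF1, CCDC170 and PGR. ESR1 at 10.4 RPKM (10.3 to 10.6) and CA12 at 10.4 RPKM (10.2 to 10.6) did not differ beyond counting error on annotated exonic length. ESR1 was at 57.6 and CA12 at 33.4 RPKM on mean transcript length. Neither ESR1 length is that of the fusion, so the per-length order of ESR1 and CA12 is not settled. NRIP1 at 3.32, GPER1 at 1.42, SYNE1 at 0.343 and GREB1 at 0.130 RPKM each stood clear of the next on annotated exonic length. On mean transcript length SYNE1 was at 3.83 RPKM, above GPER1 at 2.02, so the order of SYNE1 and GPER1 depends on the length used. ESR2 at 0.0419 RPKM (0.0343 to 0.0512) and TFF1 at 0.0212 RPKM (0.00581 to 0.0773) did not differ beyond counting error, nor did TFF1 and CCDC170 at 0.00576 RPKM (0.00264 to 0.0126).

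**Figure D3:**
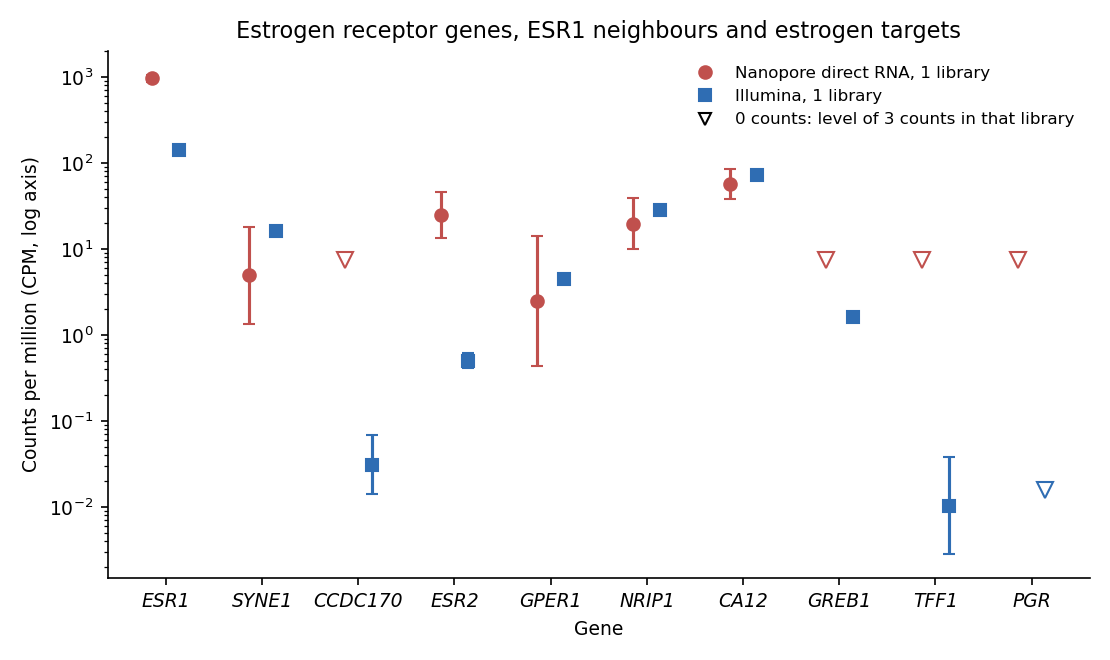
CPM of the 10 genes on a log axis in the Nanopore library (circles) and the Illumina library (squares), with 95% Wilson intervals. Open triangles stand at the level of 3 counts for genes with 0 counts. CA12, NRIP1, GPER1 and SYNE1 have overlapping Nanopore and Illumina intervals, ESR1 and ESR2 are higher by Nanopore, and PGR is at 0 in both.

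Counted together, 6 of the 10 genes were detected by Nanopore and 9 by Illumina, beside 59.2% and 78.3% of all protein-coding genes, and 4 were at 5 CPM or more by Illumina, beside 52.3%. The 5 genes with a mean of 5 CPM or more were tested. Of these, ESR1 and ESR2 were higher by Nanopore at an adjusted p-value under 0.05 and by at least 4-fold. None was higher by Illumina. Of all tested genes, 20.2% passed that p-value with the higher level by Nanopore and 27.2% with the higher level by Illumina. With the 4-fold requirement the shares were 12.9% and 7.31%. With 2 of 5 members called, the count is too small to be set against those shares. In addition, ESR2 entered the test through its Nanopore level alone.

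A wider list of 42 genes known to be induced by estrogen in receptor-positive cells was read next. By Illumina 37 had counts and 23 (54.8%) were at 5 CPM or more, close to the 52.3% of protein-coding genes, and by Nanopore 25 had counts. The median Illumina level was 1.05 RPKM, beside 1.24 RPKM over protein-coding genes, so as a group the list lay near the middle of the transcriptome. The 3 with the highest Illumina CPM were FKBP4, a cochaperone of steroid receptors, MYC, a growth-promoting transcription factor, and CCND1, the gene of cyclin D1. FKBP4 had 64 Nanopore counts and 273 Illumina CPM, MYC 98 counts and 217.6 CPM, and CCND1 15 counts and 173 CPM.

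Other genes of that list were at the opposite end. CXCL12, RET, TFF3, CALCR and OLFM1 were listed at 0 in both libraries, beside 4230 of 19831 protein-coding genes, and AGR2 had 1 Illumina count. Under 1 CPM by Illumina were 15 of the 42 genes, beside 7722 of 19831 protein-coding genes. TFF3 and AGR2 are secretory genes of luminal cells, and RET is a receptor tyrosine kinase. MYB, a transcription factor, and PDZK1, a scaffold protein gene, had 159 and 86 Illumina counts and no Nanopore count. XBP1, a transcription factor that stands on this list and on the luminal list, had 25 Nanopore counts and 43.2 Illumina CPM.

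The 21 list genes with a mean of 5 CPM or more were tested. Of these, 4 passed an adjusted p-value of 0.05 with the Nanopore level higher, beside 20.2% of all tested genes. With the Illumina level higher 3 passed, beside 27.2%. Their median log2 ratio was −0.19, beside −0.42 over all tested genes. Both medians turned positive with Illumina counts divided by exonic length, to 0.54 and 0.41. SERPINA3 (39 and 4075 counts, log2 ratio 2.13) and EGR3 (4 and 188 counts, 2.46) were 4-fold higher by Nanopore, beside 12.9% of all tested genes. CCND1 (15 and 33140 counts, −2.19) and STC2 (5 and 10502 counts, −2.06) were 4-fold higher by Illumina, beside 7.31%. Their Benjamini-Hochberg p ran from 4.91e-14 (CCND1) to 0.00462 (EGR3), exact binomial test. Each call was lost under some setting: CCND1 at −1.37 and STC2 at −1.17 (exact binomial test, Benjamini-Hochberg p = 0.0941) after division by exonic length, and SERPINA3 at 1.95 and EGR3 at 1.32 with a pseudocount of 5 CPM. EGR3 rested on 4 Nanopore counts and was at 0.87 against thinned Illumina counts (exact binomial test, Benjamini-Hochberg p = 0.851). EGR3 reached the 5 CPM mean through its Nanopore level alone. So did CCN5 (5 and 594 counts, log2 ratio 1.71), another of the 4 genes higher by Nanopore.

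The cofactors that a bound receptor recruits were all expressed. Each of 20 coactivators and corepressors had counts in both libraries and at least 5 CPM by Illumina, a level reached by 52.3% of protein-coding genes. Their median was 5.38 RPKM, beside 1.24 RPKM over protein-coding genes. DDX5 (119 Nanopore counts, 547 Illumina CPM), PRMT1 (62 counts, 307.5 CPM) and DDX17 (31 counts, 271.7 CPM) had the highest Illumina CPM. DDX5 and DDX17 are RNA helicases, and PRMT1 is an arginine methyltransferase. The p160 coactivators ran from 1.33 RPKM for NCOA2 and 1.37 RPKM for NCOA1 to 8.62 RPKM for NCOA3.

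Between the libraries 13 of these 20 were higher by Illumina at an adjusted p-value under 0.05, beside 27.2% of all tested genes, and none was higher by Nanopore, beside 20.2%, with a median log2 ratio of −1.20. SAFB, PELP1, NCOA3 and KMT2D were 4-fold higher by Illumina, beside 7.31% of all tested genes, and none by Nanopore, beside 12.9%. The NCOA3 call was lost with TMM scaling (−1.92), median-ratio scaling (−1.88), a pseudocount of 5 CPM (−1.79) and thinned Illumina counts (−1.89). The SAFB call was lost against thinned Illumina counts (−1.99). With division by exonic length, 17 of the 20 reached the 5 CPM mean, none was higher by Illumina and 5 were higher by Nanopore. The median became 0.38, beside 0.41 over all tested genes. With division by mean transcript length 5 were higher by Illumina and 1 by Nanopore, with a median of −0.11 beside 0.07, so the direction turned under exonic length but not under transcript length.

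Factors that open or share receptor sites were uneven. FOXA1, the pioneer factor of luminal receptor binding, had 0 Nanopore and 952 Illumina counts, 1.12 RPKM, and GATA3 had 4 and 2479 counts, 3.81 RPKM. TFAP2A was at 7.42 RPKM and TFAP2C at 5.71 RPKM. SPDEF, a luminal factor, was listed at 0 in both. Of the 11 factors on the list, FOS (268 counts and 127 CPM), SP1 (3 counts and 77.9 CPM) and TFAP2A (13 counts and 61.0 CPM) had the highest Illumina CPM. FOS was 4-fold higher by Nanopore, and SP1 and RUNX1 4-fold higher by Illumina, beside 12.9% and 7.31% of all tested genes. With division by exonic length SP1 was at −1.68 and RUNX1 moved from −2.04 to 0.30, both no longer called, and FOS was at 1.99, just under 4-fold, against thinned Illumina counts.

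Among 12 other steroid and related nuclear receptors, NR3C1, the glucocorticoid receptor gene, had the highest Illumina CPM, 83.8 with 20 Nanopore counts, followed by RARG with 13 counts and 64.8 CPM and VDR with 7 counts and 58.2 CPM. ESRRA, an orphan receptor related to ESR1 in sequence, had 65 Nanopore counts, 161 CPM, against 49.6 CPM for NR3C1, and 46.0 Illumina CPM. Per length by Illumina ESRRA was at 14.8 RPKM, above NR3C1 at 9.15 RPKM. Its relatives ESRRB and ESRRG had 6 and 26 Illumina counts and no Nanopore count. NR3C2, the mineralocorticoid receptor gene, had 204 Illumina counts. The receptor genes PGR and ESR2 were under 1 CPM by Illumina, in cells where ESR1 was at 143 CPM.

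Chaperones of the hormone-binding domain were abundant, with all 10 of the list at 5 CPM or more by Illumina, beside 52.3% of protein-coding genes. Their median was 65.8 RPKM, beside 1.24 RPKM over protein-coding genes. HSPA8 (508 Nanopore counts, 3255 Illumina CPM), HSP90AA1 (380 counts, 2580 CPM) and HSP90AB1 (345 counts, 2266 CPM) had the highest Illumina CPM. PTGES3, the p23 cochaperone, was at 111 RPKM, and FKBP5, a glucocorticoid-responsive cochaperone gene, at 58.4 RPKM. Of the 10, 7 were higher by Illumina at an adjusted p-value under 0.05, beside 27.2% of all tested genes. None was called 4-fold higher by Illumina or by Nanopore, beside 7.31% and 12.9%. After division by exonic length 5 were higher by Illumina and 2 by Nanopore. With mean transcript length 7 were higher by Illumina, 1 of them 4-fold, and 2 by Nanopore. The median log2 ratios were then −0.40 and −1.02, beside 0.41 and 0.07 over all tested genes. Some of these genes have processed copies elsewhere in the genome, and how such reads were counted is not known.

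Enzymes that convert tamoxifen were mostly at low levels, with 8 of 11 under 1 CPM by Illumina, beside 7722 of 19831 protein-coding genes. Of these 11 genes 6 had Illumina counts and 3 had Nanopore counts, beside 78.3% and 59.2% of protein-coding genes. CYP1B1 (7 Nanopore counts and 5.61 Illumina CPM), UGT1A4 (1 count and 1.59 CPM) and SULT1A1 (2 counts and 1.17 CPM) had the highest Illumina CPM. CYP1B1 alone was tested, with a log2 ratio of 1.47 (exact binomial test, Benjamini-Hochberg p = 0.0383). CYP2D6, the main enzyme of 4-hydroxylation, had 4 Illumina counts and no Nanopore count. CYP3A4, CYP2C19, UGT2B7 and UGT2B15 were among those listed at 0 in both libraries. SULT1A1, UGT1A4 and CYP2D6 have near-identical relatives, so their counts are uncertain. Some genes, such as FKBP4, XBP1, RARA, FOXA1, GATA3, SPDEF, AGR2 and TFF3, stand on more than 1 of these lists.

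**Figure D4:**
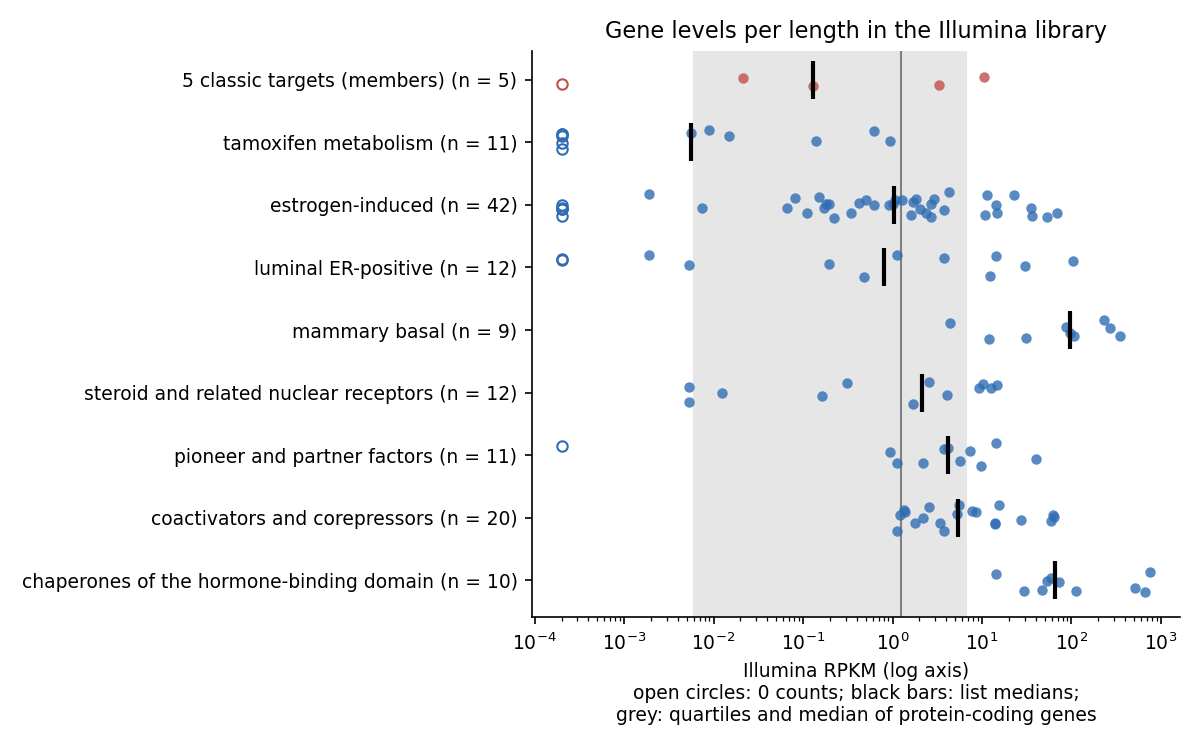
Illumina RPKM (log axis) of each gene in the 5 classic targets and in 8 gene lists, with open circles at the left for genes with 0 counts, black bars at list medians, and the median (1.24) and quartiles (0.00601 and 6.65) of protein-coding genes in grey. Chaperones (median 65.8) and basal markers (median 96.7) lie to the right, and tamoxifen enzymes (median 0.00559) to the left.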

How the data were processed

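Whole-number counts per Ensembl gene were deposited by the authors without normalization, 1 table per library. The submitters' processing notes name minimap2 2.11-r797, HISAT2 2.1.0, featureCounts and the build hg38, without saying which step used which. The annotation, the use of strand and the handling of multi-gene and multi-mapping reads are not given in the sources used here, nor is the suffix of the Nanopore column name explained, so whether long reads were corrected with short reads is not known. These choices bear on ESR2, GPER1 and NRIP1, which overlap other genes.

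Of 58735 identifiers 58207 matched GENCODE release 44, which gave names, positions and lengths. CPM used each library's total. Union exonic length served for RPKM. With 1 library per platform no edgeR quasi-likelihood test could be made. Genes averaging 5 CPM or more over the libraries were compared by a two-sided exact conditional binomial test (SciPy 1.17.1, double the smaller tail) with Benjamini-Hochberg adjustment over all 12414, and a call needed both a value below 0.05 and a 4-fold ratio with a pseudocount of 1 CPM. This compares 2 libraries, not platforms or conditions. The mean of 5 CPM could be reached through 1 library alone, which favours a call in its direction. ESR2, EGR3, CCN5, ENSG00000235609 and ENSG00000229047 reached it through Nanopore. The test was run on counts simulated with counting error alone at these depths. That cannot show how it behaves where libraries differ in other ways. TMM factors came from edgeR 4.0.16 (R 4.3.3). PCR copies are not independent molecules, so intervals cover counting error only.

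Named were the 10 genes, SNAI1, counted genes overlapping them, protein-coding genes within 1 Mb of ESR1, the 3 protein-coding genes nearest to ESR1, and from each list the 3 highest by Illumina CPM, those at 0 in both and those called 4-fold. Other named list genes were chosen after their values were seen. Some list genes that the rule would name are not reported here. Members and lists were chosen with earlier results of these data known. RefSeq promoters (GRCh38.p14, 300 bases around the start) were found for 8 of the 10 genes, and none held the response element with at most 1 mismatch.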

Additional observations from a re-analysis of the deposited data

How the results depend on the processing

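No paired analysis was possible because each platform had 1 library. ESR1 and ESR2 were the members called 4-fold different under all 10 alternatives: pseudocounts of 0.1 and 5 CPM, TMM and median-ratio scaling, Illumina counts divided by union exonic or mean transcript length, Illumina counts thinned once at random to the Nanopore total, and filters at a mean of 1 CPM, 10 CPM or none. The ESR1 ratio ranged from 2.71 to 5.05 and the ESR2 ratio, whose ends came from the pseudocounts of 5 and 0.1 CPM, from 2.44 to 5.37, and TMM and median-ratio scaling raised ratios by up to 0.088 and 0.13. With a minimum of 10 counts the number of members detected by Nanopore fell from 6 to 3. The NRIP1 ratio of −0.49 became 1.06 (union exonic length), 1.01 (mean transcript length) and 0.39 (thinned), and the CA12 ratio of −0.35 became 1.00 and 0.50 with the 2 lengths. Of these, CA12 with union exonic length passed 0.05 (exact binomial test, Benjamini-Hochberg p = 0.00837), and the others ran from 0.121 to 0.926. The median ratio over all tested genes moved from −0.42 to 0.41 with union exonic length and to 0.07 with mean transcript length. The SNAI1 ratio of −0.28 (0.0027 by the same test) became −0.94 with union exonic length (1.7e-33) and 0.23 with mean transcript length (0.0227), and with TMM, median-ratio scaling and thinning its adjusted p-value was 0.0544 to 0.146. SNAI1 has the same length in both length settings, so those 2 ratios differ only through the lengths of other genes. SYNE1 fell under the 5 CPM minimum after division by either length. The estrogen-induced genes at 5 CPM or more by Illumina numbered 23, and 16 to 27 under other levels or per length. The Nanopore depth limits GREB1, TFF1, CCDC170 and PGR, whose 0 counts allow levels of up to 7.44 CPM (3 counts).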
